A study of Mus musculus with 64 samples.

Results

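The genes described here encode subunits of the AMPA and NMDA receptors, the ionotropic glutamate receptors that carry most fast excitation in the brain. They are the 4 AMPA subunit genes Gria1, Gria2, Gria3 and Gria4 and the NMDA subunit genes Grin1, Grin2a, Grin2b, Grin2c, Grin2d and Grin3a, taken by symbol from the table of counts, 10 of its 24421 gene symbols. RNA had been sequenced from the ventral tegmental area (VTA), the part of the midbrain where mesolimbic dopamine neurons lie, of 64 adult male mice of strain 129S1/Svlm, with 1 library per mouse. Mice were labelled Wildtype or ClockΔ19, an allele that makes the CLOCK transcription factor dominant negative in every tissue, and the study set both genotypes and both drugs against their controls. The drugs were VPA (valproate, a mood stabiliser that also inhibits histone deacetylases) and ACY957 (an inhibitor of class I histone deacetylases), each with a vehicle of its own. Treatment lasted 14 days, and bilateral 1 mm punches were cut from brains collected at ZT6 (6 h after lights on), some 24 h from the final dose.

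By the labels, the mutant groups held 8 VPA libraries, 8 ACY957 libraries, 13 VPA vehicle libraries and 11 ACY957 vehicle libraries. The wildtype groups held 8 VPA libraries, 8 ACY957 libraries, 3 VPA vehicle libraries and 5 ACY957 vehicle libraries, where the design text plans 8 mice in each group. Totals ran from 20.1 M to 37.5 M counted reads (median 25.8 M). Th and Slc6a3, which make and recapture dopamine, had medians of 998.5 and 2669 CPM (counts scaled to the total of the library), but 4 libraries lay under 8 log2 CPM for Th: replicates 2 and 8 of the mutant VPA group, replicate 3 of the mutant VPA vehicle group and replicate 3 of the wildtype VPA group. A mean of 8 clock output genes split the libraries into a lower and an upper set. The lower set lay at most at 4.32 log2 CPM and the upper set at least at 4.91 log2 CPM. Of the libraries, 13 lay with the set of the other label, 12 of them labelled mutant. They were replicates 3, 5, 6, 7, 8 and 13 of the mutant VPA vehicle group and 6, 7 and 8 of the mutant ACY957 vehicle group. The rest were replicates 1 and 3 of the mutant ACY957 group, 2 of the mutant VPA group and 8 of the wildtype ACY957 group. Each mutant-labelled group thus held libraries of both sets. Of these, replicates 5, 6, 7, 8 and 13 with VPA vehicle and 6, 7 and 8 with ACY957 vehicle came from mouse 48 or later. Counting just these as wildtype would give each vehicle group the planned 8 libraries. Whether they carry the wrong label was not tested, and every comparison here kept the labels. Clock itself had a median of 72.6 CPM in mutant-labelled libraries and 67.95 CPM in wildtype-labelled libraries, and a gene total does not tell the mutant allele from the normal one. Mouse numbers run through the wildtype label first and the mutant label after it, and no batch is labelled. Treatments also ran in blocks: in the wildtype label, VPA was mice 1 to 8, the vehicles 9 to 16 and ACY957 17 to 24. Replicates 1 to 6 of the wildtype VPA group had 31.7 M to 37.5 M reads, against 25.2 M to 28.2 M in the mutant VPA group. The label, the treatment and anything that ran with mouse number thus cannot be told apart. In punches of bulk tissue, fewer cells of a type and less RNA per cell cannot be told apart either.

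AMPA receptors are tetramers of GluA1 to GluA4, the products of Gria1 to Gria4, and GluA2 sets whether the channel passes calcium. NMDA receptors need GluN1, the product of Grin1, which binds glycine, joined with GluN2 subunits, which bind glutamate and set the kinetics, or with GluN3 subunits. In VTA dopamine neurons, glutamate acting on both receptor types drives burst firing, and a change in the ratio of AMPA to NMDA currents is a known response of these neurons to drugs and stress.

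Because the CLOCK protein binds the E-box CACGTG, the start regions of the members were read for it in both directions (the word is its own reverse complement). RefSeq sequences (GRCm38.p6; 250 bases before the start to 50 after it) were matched for 5 of the 10 members: Gria2, Gria4, Grin1, Grin2c and Grin2d. Grin1 was the member of these 5 with the word, which it held 2 times, starting at -181 and at -85 from the start, while 7.15% of 32851 promoters of this length held it at least once and 0.59% held it 2 or more times. Grin2c held no CACGTG but 3 copies of the Sp1 word GGGCGG (or CCGCCC on the other strand), counted with overlaps, since a pair of them share a base. This word was found at least once in 35.66% of the promoters and 3 or more times in 10.71%. These are letter matches and not measured sites. In the genotype test below Grin2c passed, and Grin1, Gria2, Gria4 and Grin2d did not. The sequences shown are those of Grin1, for its 2 CACGTG words, and of Grin2c. They run 5′ to 3′ on the strand of the gene, Grin1 at chr2:25319138-25319437 (minus strand) and Grin2c at chr11:115267194-115267493 (minus strand), and capitals mark CACGTG.
Grin1: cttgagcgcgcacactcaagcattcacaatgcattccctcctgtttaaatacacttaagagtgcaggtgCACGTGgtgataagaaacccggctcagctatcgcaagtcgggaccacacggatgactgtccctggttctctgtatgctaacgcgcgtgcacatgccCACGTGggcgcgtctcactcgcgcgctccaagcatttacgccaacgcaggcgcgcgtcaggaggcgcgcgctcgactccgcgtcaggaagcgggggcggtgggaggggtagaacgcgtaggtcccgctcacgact
Grin2c: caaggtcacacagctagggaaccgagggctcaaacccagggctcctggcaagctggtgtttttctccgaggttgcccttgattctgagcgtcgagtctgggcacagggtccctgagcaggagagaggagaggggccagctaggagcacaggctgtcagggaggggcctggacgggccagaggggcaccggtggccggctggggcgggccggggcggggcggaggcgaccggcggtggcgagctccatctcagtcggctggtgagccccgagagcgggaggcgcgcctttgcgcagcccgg

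Per kb of exon, Gria1 and Grin1 were the most abundant members, and Grin2a and Grin2b were the least abundant. On the scale of CPM per kb of exon, Gria1, whose product GluA1 is inserted in synaptic plasticity, averaged 50.3 ± 6.58 (SD, n = 64 libraries), and Grin1 averaged 43.6 ± 6.06. Gria4, typical of interneurons and brainstem, averaged 23.1 ± 2.02 CPM per kb, Gria2 19.98 ± 3.17 and Gria3 12.3 ± 1.74. Grin3a, whose product lowers calcium entry, led the NMDA members other than Grin1 at 7.86 ± 1.15 CPM per kb, ahead of Grin2c at 5.73 ± 0.709 and of Grin2d, the slowly closing subunit of midbrain and brainstem, at 2.49 ± 0.465. Grin2a averaged 0.132 ± 0.0411 CPM per kb and Grin2b 0.0950 ± 0.0327, the subunits that dominate forebrain NMDA receptors. The forebrain subunits thus lay at the bottom of the order, far under Grin2d.

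**Figure D1:**
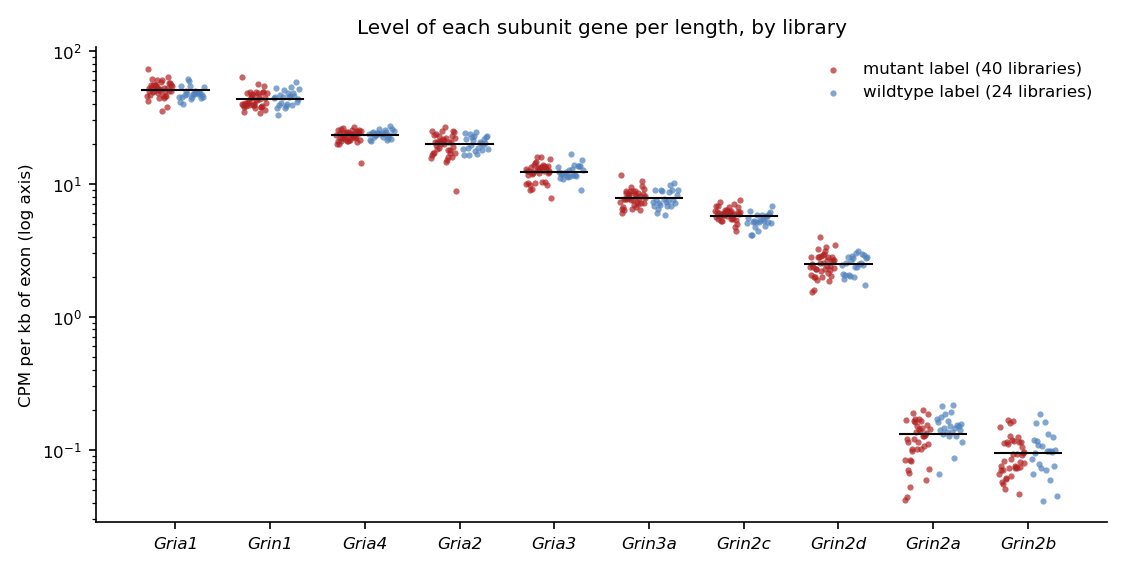
Level of each member in CPM per kb of exon on a log axis; each point is a library (red, mutant label, 40 libraries; blue, wildtype label, 24 libraries) and each line the mean over 64 libraries. Gria1 and Grin1 lie highest, Grin2a and Grin2b lowest, with overlapping ranges of both labels.

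Most neighbours in this order overlapped in range but kept their order within a library. Gria1 was above Grin1 in 55 of 64 libraries, Gria4 above Gria2 in 51, Gria2 above Gria3 in 63, Gria3 above Grin3a in 62 and Grin3a above Grin2c in 61. The steps with no overlap were Grin1 over Gria4, Grin2c over Grin2d and Grin2d over Grin2a. Grin2a exceeded Grin2b in 52 of 64 libraries. The order depends on the length used, as exon models include untranslated ends: per kb of coding sequence, Gria2 came next to Gria1 at 79.1 ± 12.5 CPM per kb, above Grin1 at 66.2 ± 9.21, and Grin2b at 0.530 ± 0.182 came above Grin2a at 0.448 ± 0.140, in 43 of 64 libraries. The placing of Gria1 first, and of Gria3, Grin3a, Grin2c and Grin2d as the fifth to the eighth, was the same on both scales.

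Within the AMPA family, Gria1 took 47.5% ± 3.82 of the summed level per kb of exon (SD, n = 64), Gria4 21.99% ± 2.41, Gria2 18.8% ± 2.04 and Gria3 11.7% ± 1.81. Per kb of coding sequence the share of Gria2 was 29.7% ± 2.83 and that of Gria1 40.3% ± 3.57. The NMDA shares are of the members only and leave out Grin3b, which had a median of 1.06 CPM. Among these members, Grin1 took 72.6% ± 1.85, Grin3a 13.1% ± 1.18, Grin2c 9.66% ± 1.39 and Grin2d 4.18% ± 0.670, while Grin2a at 0.223% ± 0.0724 and Grin2b at 0.159% ± 0.0549 took the smallest shares. These are shares of messenger RNA in the punch and not of receptor protein.

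On GRCm38, Gria1 lies at chromosome 11, 57011387 to 57330244 (plus strand), Gria2 at chromosome 3, 80681450 to 80802835 (minus), Grin1 at chromosome 2, 25291181 to 25319187 (minus) and Grin2a at chromosome 16, 9567898 to 9995560 (minus). In counts per library, Gria1 ran from 5355 to 10906, Gria2 from 2943 to 7926, Gria3 from 1204 to 2409, Gria4 from 2721 to 5292 and Grin1 from 3684 to 7241. Grin3a ran from 1059 to 2222, Grin2c from 505 to 1206, Grin2d from 226 to 669, Grin2b from 25 to 135 and Grin2a from 16 to 120. All 10 passed the filter on low counts. Across libraries the coefficient of variation of the CPM was lowest for Gria4 (8.74%) and Grin2c (12.4%), lay between 13.1% and 18.6% for Gria1, Grin1, Gria3, Grin3a, Gria2 and Grin2d, and was highest for Grin2a (31.2%) and Grin2b (34.4%), the members with the fewest reads. Exons of Grin1 share 29.9% of their bases with Grin1os on the other strand, and those of Grin2d 6.85% with a predicted gene; the strand setting of the counting is not given in the sources used here.

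The question of the genotype comparison was which members differ in the mutant. Grin2c rose in mutant-labelled libraries over all treatments, and by edgeR it was the only member of 10 that passed in this comparison or in any other of the 14 comparisons tested. Grin2c lies at chromosome 11, 115249169 to 115267243, on the minus strand of GRCm38; its product GluN2C gives receptors of low conductance and weak magnesium block and is known from cerebellar granule cells and, in mice, from some astrocytes. The change was small, a log2 fold change of 0.18 (SE 0.04; edgeR quasi-likelihood test, Benjamini-Hochberg adjusted p = 0.00529), which is 1.14-fold. The test passed 1.82% of 15634 genes (285). Of the mutant-labelled libraries, 35 of 40 lay above the wildtype median.

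Under VPA, Grin2c in CPM had a lowest, median and highest value of 26.8, 30.5 and 34.1 in mutant-labelled libraries and of 20.7, 25.7 and 31.6 in wildtype-labelled libraries. All 8 mutant-labelled VPA libraries lay above the wildtype median, but the ranges overlapped. Under ACY957 the values were 28.6, 31.2 and 33.6 CPM in mutant-labelled libraries and 24.3, 28.8 and 33.9 CPM in wildtype-labelled libraries, so that the highest library of the pair was a wildtype-labelled one, the one whose clock output lay with the lower set. With VPA vehicle they were 22.3, 27.6 and 36.7 CPM in 13 mutant-labelled libraries, against 22.4, 26.1 and 26.1 CPM in the 3 wildtype-labelled libraries. With ACY957 vehicle they were 25.1, 30.3 and 38.1 CPM in 11 mutant-labelled libraries, against 26.3, 26.99, 27.1, 29.3 and 29.3 CPM in the 5 wildtype-labelled libraries. Medians were higher under the mutant label in all 4 treatments, and the ranges overlapped in each.

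Taken treatment by treatment, Grin2c was higher under the mutant label by 0.27 (SE 0.08, adjusted p = 0.0626) under VPA, by 0.13 (SE 0.08, adjusted p = 1) under ACY957, by 0.20 (SE 0.10, adjusted p = 0.913) with VPA vehicle and by 0.14 (SE 0.08, adjusted p = 0.999) with ACY957 vehicle, on the log2 scale by edgeR's quasi-likelihood test. None of these passed. It was the member with the smallest p in each of the 4 comparisons. The drug effects on Grin2c differed between the labels by 0.07 (SE 0.13) for VPA and by -0.01 (SE 0.11) for ACY957, each with an adjusted p of 1 by edgeR.

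**Figure D2:**
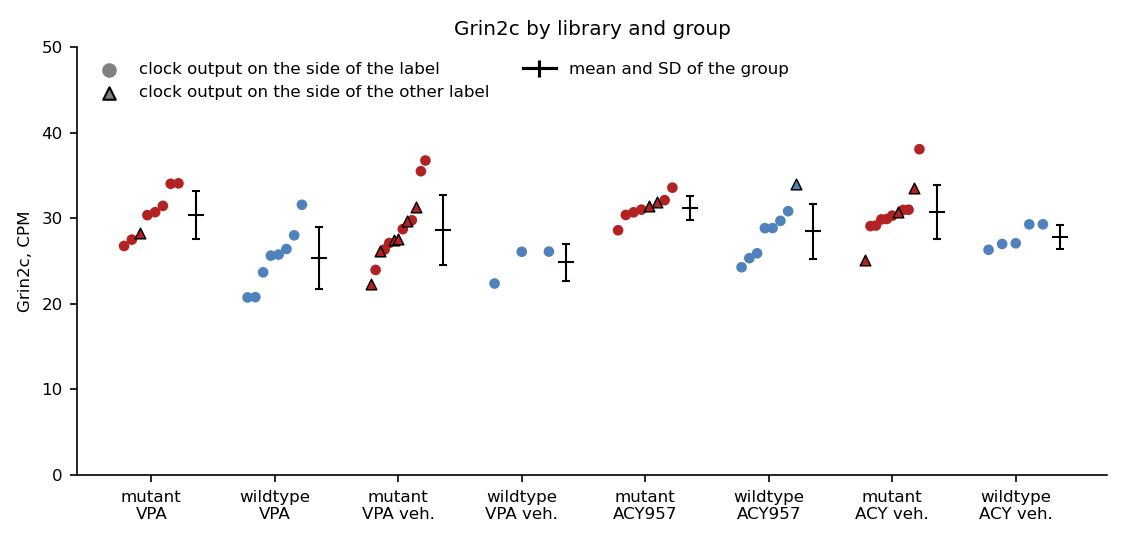
Grin2c in CPM for each library by group (red, mutant label; blue, wildtype label; triangles, the 13 libraries whose clock output lay with the other label; black, mean and SD of the group). Medians are higher under the mutant label in each treatment, and ranges overlap.

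The Grin2c difference was also seen without the 13 libraries whose clock output went against their label. Among mutant-labelled libraries, the 28 in the lower clock output set had 23.96, 30.4 and 38.1 CPM as lowest, median and highest, and the 12 in the upper set ran from 22.3 to 33.6 CPM with their 2 middle libraries at 28.3 and 29.7 CPM, between the medians of the concordant sets. The 23 wildtype-labelled libraries in the upper set had 20.7, 26.3 and 31.6 CPM. The lone wildtype-labelled library in the lower set had 33.9 CPM, the highest of its label. Without the 13 libraries the log2 fold change was 0.21 (SE 0.04, edgeR adjusted p = 0.000524), and without the 4 libraries low in Th it was 0.21 (SE 0.04, edgeR adjusted p = 0.00143). Grin1, named here after its values were seen, had medians of 173 CPM in the lower and 205 CPM in the upper set of the mutant label. Its ranges there overlapped. In the wildtype label its upper set had a median of 195 CPM and the lone lower-set library 224 CPM. Its relation to clock output was not tested.

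Some marker genes of other cells also differed between the labels. Of 8 microglia markers 4 fell over all treatments by the same edgeR test, where 1.82% of all genes passed. Among them were Csf1r by 0.16, Cx3cr1 by 0.20 and P2ry12 by 0.28 on the log2 scale, and all 8 were lower. Their summed level ran from 453 to 638 CPM (median 521) in mutant-labelled libraries and from 500 to 746 CPM (median 580) in wildtype-labelled libraries, with no marker at 0 in any library. Among 8 endothelial and mural markers, Cldn5 rose by 0.33 and Rgs5 fell by 0.23, so the list did not move in 1 direction. Their sums were 304 to 441 CPM (median 367) in mutant-labelled libraries and 280 to 444 CPM (median 356) in wildtype-labelled libraries. None of 9 astrocyte markers passed and all 9 were higher, by 0.01 to 0.34, with sums of 1735 to 2653 CPM under the mutant label and 1763 to 2464 CPM under the wildtype label. With the mean of the microglia markers as a covariate, a choice made after seeing the data, the Grin2c difference was 0.14 (SE 0.04, edgeR adjusted p = 0.0698) and no longer passed. With the astrocyte mean as a covariate it was 0.17 (edgeR adjusted p = 0.0375) and with the endothelial and mural mean 0.16 (edgeR adjusted p = 0.00789). Over the 60 libraries with Th at or above 8 log2 CPM, Grin2c correlated with these means at r = -0.47 (microglia), 0.50 (endothelial and mural) and 0.27 (astrocyte), which share library and depth and are given as a description. Because the microglia markers themselves differed between the labels, the fit with their mean cannot tell the label from these cells. The part of these cells in the result was not tested.

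For the other 9 members no difference between the labels passed over all treatments. Their log2 fold changes ran from -0.36 for Grin2a to 0.10 for Gria1, and the median over the 10 members was -0.02, against 0.00 over all genes. Grin2a, named here after its values were seen, was lower in the mutant label by 0.36 (SE 0.12; unadjusted p = 0.00485 and adjusted p = 0.116 by edgeR). Under VPA it had a lowest, median and highest value of 0.622, 1.16 and 2.52 CPM in mutant-labelled libraries and of 0.979, 2.29 and 3.20 CPM in wildtype-labelled libraries. Of the 8 mutant-labelled VPA libraries, 7 lay below the wildtype median. The log2 fold change there was -0.78 (SE 0.22, edgeR adjusted p = 0.0641), and with Th as a covariate it was -0.46 (SE 0.19, edgeR adjusted p = 0.348). The mutant VPA group holds 2 of the 4 libraries low in Th, in which Grin2a was at 0.622 and 0.886 CPM. The summed level of 10 dopamine neuron markers ran from 378 to 10160 CPM in mutant-labelled libraries and from 1064 to 13440 CPM in wildtype-labelled libraries, with no marker at 0 in any.

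By treatment, the test passed 0 of 10 members between labels under VPA (1% of all genes passed), 0 under ACY957 (0%), 0 with VPA vehicle (0.0064%) and 0 with ACY957 vehicle (0.0128%). At an unadjusted p under 0.05 it counted 3 members under VPA, where 15.7% of all genes had such a p. It counted 0 under ACY957 (4.84% of all genes), 0 with VPA vehicle (5.15%) and 0 with ACY957 vehicle (3.61%). By DESeq2, Grin2a (adjusted p = 0.0376) and Grin2c (adjusted p = 0.0405) passed under VPA, as did 1.68% of all genes. The third member under VPA was Gria1, also named after its values were seen, higher in the mutant label by 0.22 (SE 0.08, edgeR adjusted p = 0.186), with a lowest, median and highest value of 242, 295 and 424 CPM in mutant-labelled libraries and of 228, 266 and 315 CPM in wildtype-labelled libraries. The highest Gria1 values were those of the mutant VPA libraries low in Th, at 424 and 368 CPM. The median log2 fold change over the 10 members was -0.01 under VPA, 0.07 under ACY957, -0.07 with VPA vehicle and -0.03 with ACY957 vehicle, against 0.00 over all genes under VPA. No member had groups without overlap in any of these 4 comparisons, and few genes did: 0.192% of all genes under VPA, 0.0512% under ACY957, 0.339% with VPA vehicle and 0.0448% with ACY957 vehicle.

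**Figure D3:**
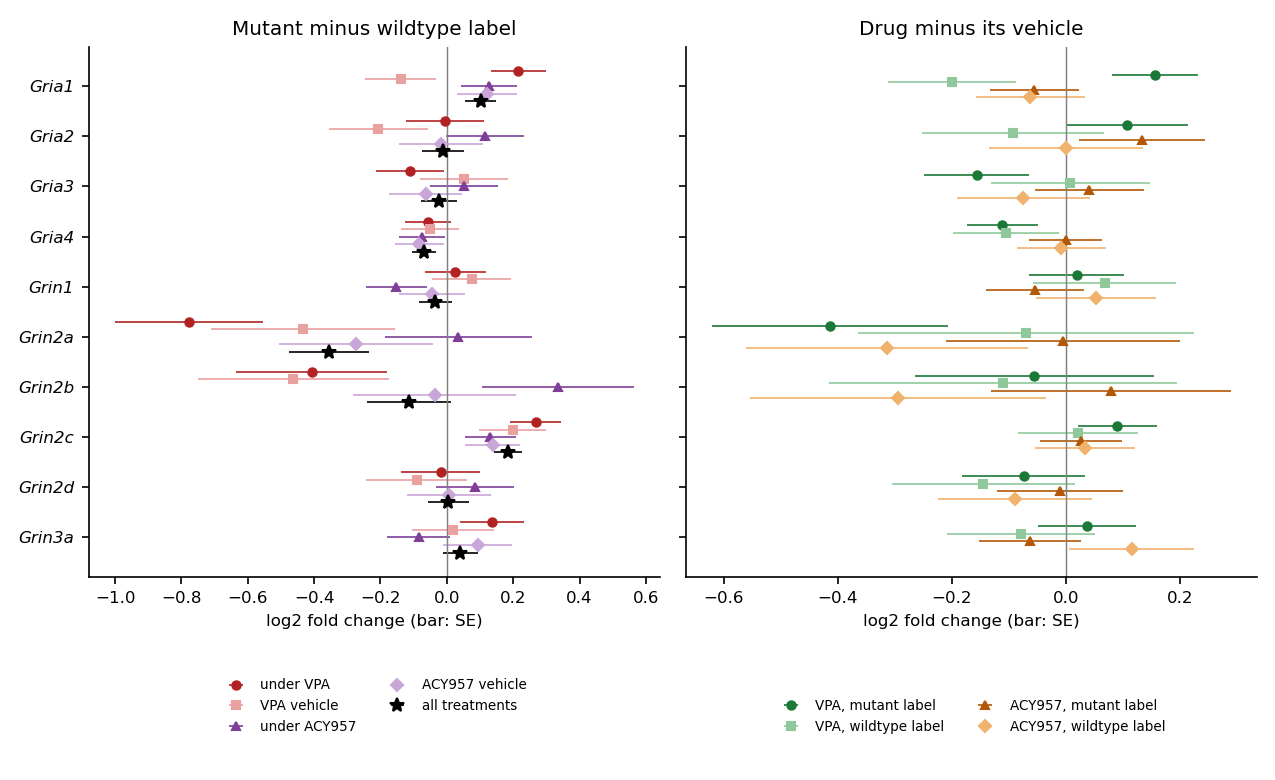
Log2 fold change of each member with its SE (bars) by edgeR. Left, mutant over wildtype label within each treatment and over all treatments (star); right, each drug over its vehicle within each label. Grin2c over all treatments is the value that passed, and Grin2a and Grin2b have the widest errors.

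The drug comparisons asked what each inhibitor does to the members within a label, and none passed. For VPA against its vehicle, 0 of 10 members passed in mutant-labelled mice (0.0576% of all genes passed) and 0 of 10 in wildtype-labelled mice (0.0256%). At an unadjusted p under 0.05 there were 2 in mutant-labelled mice, where 12.6% of all genes had such a p, and 0 in wildtype-labelled mice (4.27%). For ACY957 against its vehicle, 0 of 10 passed in mutant-labelled mice (0.0064%) and 0 of 10 in wildtype-labelled mice (0.0064%), with 0 in each at an unadjusted p under 0.05 (6.31% and 3.32% of all genes in that order). DESeq2 also passed 0 members in these 4 comparisons, at adjusted p under 0.05. It passed 0.179% of all genes for VPA in mutant-labelled mice, 0.0384% for VPA in wildtype-labelled mice and for ACY957 in mutant-labelled mice, and 0.0064% for ACY957 in wildtype-labelled mice. By limma voom 0 members passed as well, with 0.0192% of all genes for VPA in wildtype-labelled mice and for ACY957 in mutant-labelled mice and 0% in the other two. Standard errors of the members ran from 0.06 to 0.21 for VPA and for ACY957 in mutant-labelled mice. They ran from 0.08 to 0.31 in wildtype-labelled mice. Differences of that size were not detectable, and differences well above it could also have failed to pass.

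Gria1 had the smallest p for VPA under either label, with opposite signs. In mutant-labelled mice it had a lowest, median and highest value of 242, 295 and 424 CPM with VPA and of 202, 285 and 355 CPM with vehicle, a log2 fold change of 0.16 (SE 0.07, edgeR adjusted p = 0.371). In wildtype-labelled mice it had 228, 266 and 315 CPM with VPA, against 248, 312 and 354 CPM in the 3 vehicle libraries, a log2 fold change of -0.20 (SE 0.11, edgeR adjusted p = 1). The difference between these effects was 0.36 (SE 0.13, unadjusted p = 0.0107 and adjusted p = 1 by edgeR), where 1 gene, 0.0064% of all genes, passed and 0 members did. The value in mutant-labelled mice was -0.02 without 16 vehicle libraries of the mutant label (those of mouse 48 and later), and 0.00 without the 13 libraries discordant in clock output. It was 0.04 without the libraries low in Th.

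For ACY957 the smallest p in mutant-labelled mice was that of Gria2, at 208, 222 and 282 CPM (lowest, median and highest) with ACY957 and 92.9, 219 and 262 CPM with vehicle, a log2 fold change of 0.13 (SE 0.11, edgeR adjusted p = 0.953; 0.05 without vehicle replicate 11). In wildtype-labelled mice it was that of Grin2a, at 1.30, 2.14 and 2.31 CPM with ACY957, against 2.02, 2.04, 2.26, 2.87 and 3.26 CPM in the 5 vehicle libraries, a log2 fold change of -0.31 (SE 0.25, edgeR adjusted p = 0.999). The effects of ACY957 differed most by p between labels for Grin3a, by -0.18 (SE 0.14, edgeR adjusted p = 1), and no member (0% of all genes) passed. Over both labels, 0 of 10 members passed for VPA (0.895% of all genes passed) and 0 of 10 for ACY957 (0.064%), with Gria4 lower under VPA by 0.11 (edgeR adjusted p = 0.252) and Grin2a lower under ACY957 by 0.17 (edgeR adjusted p = 0.842). At an unadjusted p under 0.05 there was 1 member for VPA, where 14.9% of all genes had such a p, and 0 for ACY957 (8.89%). At adjusted p under 0.05, DESeq2 passed 0 members for either drug (1.25% of all genes for VPA and 0.157% for ACY957), and so did limma voom (0.742% and 0.0192%).

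The vehicles themselves were compared within mutant-labelled mice. With VPA vehicle, 9 of 10 members were lower than with ACY957 vehicle and none passed, while 3.66% of all genes did. The median log2 fold change was -0.13 over the members, which vary together in part, and 0.00 over all genes. Replicates 1 to 4 with VPA vehicle were at 7.655 to 8.94 log2 CPM for Th, and the lowest ACY957 vehicle library at 9.46. Both groups held libraries of the upper clock output set, more of them with VPA vehicle. The part of either in the result was not tested. Grin2d had the smallest p, at 9.79, 14.0 and 20.4 CPM (lowest, median and highest) with VPA vehicle and 11.7, 17.4 and 21.1 CPM with ACY957 vehicle, a log2 fold change of -0.24 (SE 0.10, edgeR adjusted p = 0.13). Of the 13 VPA vehicle libraries, 12 lay below the median of the ACY957 vehicle libraries. With Th as a covariate Gria1 and Grin3a, named here after their values were seen, passed: Gria1 fell by 0.22 (edgeR adjusted p = 0.016) and Grin3a by 0.20 (edgeR adjusted p = 0.0283) with VPA vehicle, where 8.23% of all genes passed.

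A library of the mutant ACY957 vehicle group, replicate 11, stood apart in the AMPA family. Its Gria2 was at 92.9 CPM, its Gria3 at 42.5 CPM and its Gria4 at 90.6 CPM, each the lowest of the 64 libraries, where the next lowest libraries had 153, 48.4 and 125 CPM. Its Gria1 at 311 CPM ranked 46 from the lowest. Its Grin2c at 38.1 CPM was the highest of all libraries. Th was at 10.6 log2 CPM there, and its median correlation with the other libraries was 0.97, the fourth lowest. Without it the Grin2c difference between labels was 0.18 (SE 0.04, edgeR adjusted p = 0.00643).

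Ratios within a library compare subunits free of library scaling. On the log2 scale of count ratios, Gria1 over Gria2 averaged 0.58 ± 0.13 in mutant-labelled VPA libraries and 0.37 ± 0.15 in wildtype-labelled VPA libraries (SD, n = 8 each; two-sided exact permutation p = 0.0117, adjusted p = 0.14 over 24 tests). The sum of Gria1 to Gria4 over Grin1 averaged 2.00 ± 0.08 in mutant-labelled ACY957 libraries and 1.78 ± 0.18 in wildtype-labelled ACY957 libraries (SD, n = 8 each; two-sided exact permutation p = 0.00451, adjusted p = 0.108). That ratio has Grin1 below, which was at 163, 184 and 212 CPM (lowest, median and highest) in the mutant-labelled libraries and at 170, 203.5 and 254 CPM in the wildtype-labelled libraries. Grin2b over Grin2a had its smallest p under ACY957, at 0.35 ± 0.33 in mutant-labelled libraries and 0.06 ± 0.50 in wildtype-labelled libraries (two-sided exact permutation p = 0.208, adjusted p = 0.715). None of the 24 ratio tests passed. The Gria1 over Gria2 ratio was 1.74 in replicate 11 of the mutant ACY957 vehicle group, and the highest elsewhere was 0.74.

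**Figure D4:**
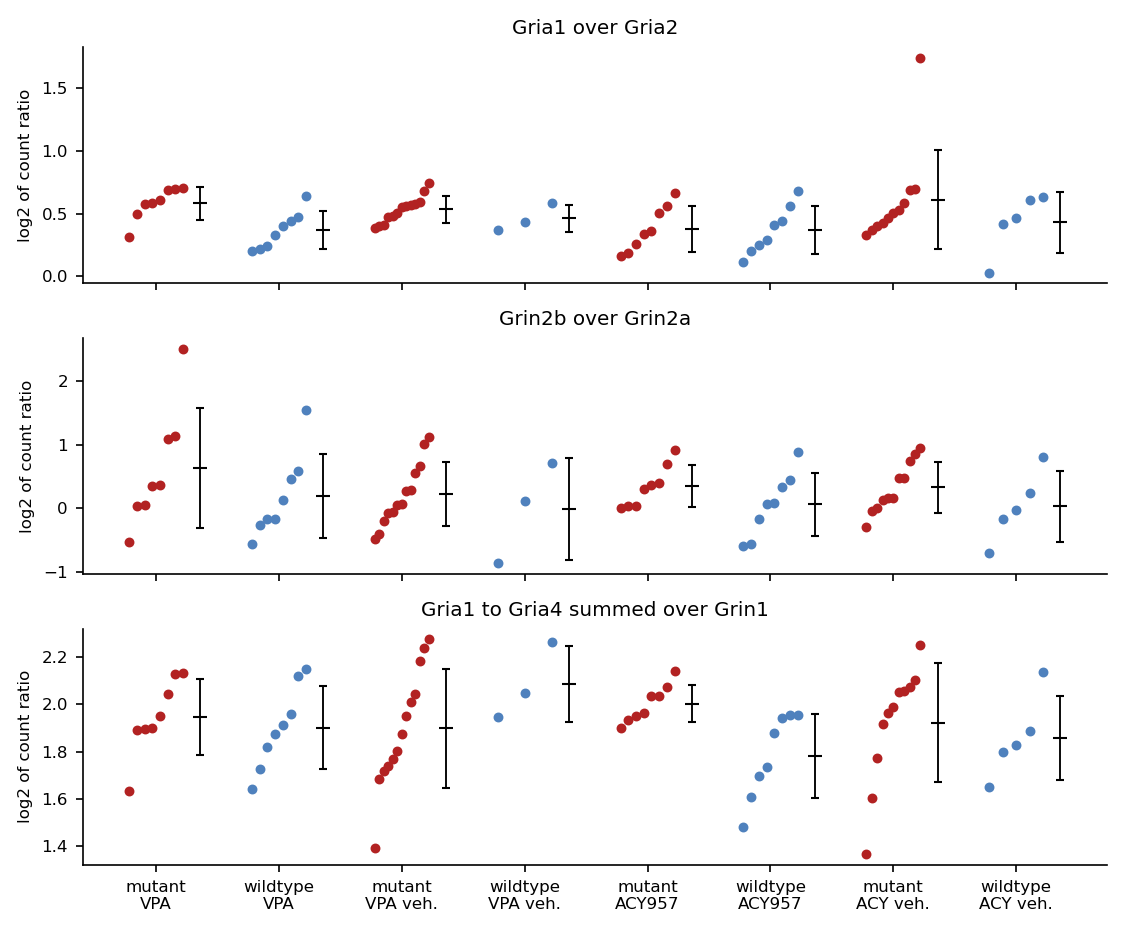
Log2 of count ratios in each library by group (red, mutant label; blue, wildtype label; black, mean and SD). Groups overlap in each panel, and replicate 11 of the mutant ACY957 vehicle group lies at 1.74 for Gria1 over Gria2.

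Part of the variation of the members ran with how many dopamine neuron transcripts a punch held. Over the 60 libraries with Th at or above 8 log2 CPM, the mean log2 CPM of 10 dopamine neuron markers was correlated with each of the 10 members, with permutation p-values (100000 resamples) adjusted over the 10. Grin2d (r = 0.53, rho = 0.43, adjusted permutation p = 0.0002 and 0.00335) and Grin2a (r = 0.53, rho = 0.46, adjusted permutation p = 0.0003 and 0.0026) rose with it. So did Gria3 (r = 0.42, rho = 0.37, adjusted permutation p = 0.00333 and 0.0106) and Grin2b (r = 0.36, rho = 0.37, adjusted permutation p = 0.0133 and 0.0106). Without the 2 libraries farthest from the median of the marker mean, r was 0.47 for Grin2d, 0.52 for Grin2a, 0.26 for Gria3 and 0.31 for Grin2b. The other 6 members had r between -0.25 (Grin2c) and -0.07 (Gria1), and none passed. Means of other marker lists, given as a description, had an r of larger size for some members. With general neuron markers Gria3 had r = 0.58 and Gria1 r = -0.57. Grin2b had r = -0.62 with oligodendrocyte markers, and Grin3a r = 0.68 with markers of oligodendrocyte precursors. For Grin2a and Grin2d the dopamine list had the r of largest size, followed by thalamic and hypothalamic markers at -0.46 and -0.45. With values centred on group means, Grin2d (r = 0.52, rho = 0.54), Grin2a (r = 0.46, rho = 0.52) and Gria3 (r = 0.43, rho = 0.44) passed by both measures, as did Grin3a in the other direction (r = -0.32, rho = -0.35, adjusted permutation p = 0.0301 and 0.0178). Grin2b (r = 0.24, rho = 0.30, adjusted permutation p = 0.0954 and 0.0410), Gria4 (r = -0.18, rho = -0.29, adjusted permutation p = 0.162 and 0.0427) and Grin1 (r = -0.26, rho = -0.27, adjusted permutation p = 0.0832 and 0.0487) then passed by rho and not by r.

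The 4 libraries low in Th were left out of these correlations, and went with them for some members only. Grin2a was at 0.979, 0.622, 0.788 and 0.886 CPM in them, all under the median of 2.09 CPM of the other 60 libraries. Gria3 and Gria4 were also below the median of the rest in 4 of 4, although the r of Gria4 was negative over the 60. Grin2d and Grin2c were below the median of the rest in 3 of 4 and Grin2b in 2 of 4. Gria1, Gria2, Grin1 and Grin3a were below it in none. Gria1 and Grin3a exceeded the highest of the other 60 libraries in 2 of 4, at 424 and 368 CPM for Gria1 and 86.4 and 78.3 CPM for Grin3a. Grin1 exceeded it in 1 of 4, at 278 CPM against 254 CPM. The libraries low in Th thus lay above the median of the rest in Gria1, Gria2, Grin1 and Grin3a, and below it in Grin2a, Gria3 and Gria4. They were VPA libraries of both labels and a mutant VPA vehicle library, with none from the ACY957 groups, so low Th ran with treatment.

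**Figure D5:**
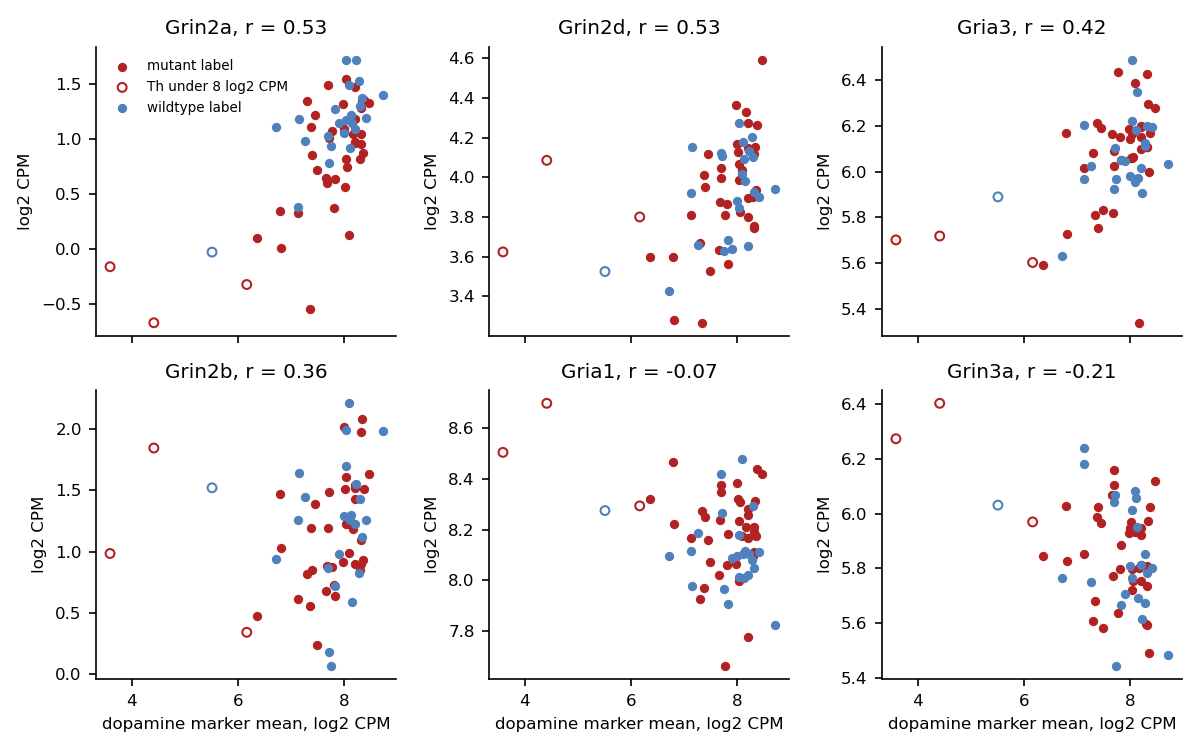
Log2 CPM of 6 members against the mean log2 CPM of 10 dopamine neuron markers; each point is a library (red, mutant label; blue, wildtype label; open, the 4 libraries under 8 log2 CPM of Th), and r is over the 60 filled points. Grin2a, Grin2d, Gria3 and Grin2b rise with the markers, and Gria1 and Grin3a have r of -0.07 and -0.21.

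As a description over the same 60 libraries, which share depth and dissection, members differed in what they varied with. Grin3a and Grin1 varied together at r = 0.63, Grin2a and Grin2d at 0.57, Gria3 and Gria4 at 0.50 and Grin2a and Grin2b at 0.47, and Grin2c and Gria4 in opposite directions at -0.37. The 2 genes outside the list with the highest r were Usp11 (0.79) and Ahi1 (0.78) for Gria1, Slc4a10 (0.91) and Chl1 (0.88) for Gria2, Ppm1e (0.82) and Trim2 (0.77) for Gria3, and Gabrb2 (0.87), which encodes a GABA-A receptor subunit, and Gucy1a2 (0.84) for Gria4. For Grin1 they were Jph3 (0.88) and Sik3 (0.87), for Grin2d Chd5 (0.90) and Atp6v0a1 (0.90), and for Grin3a Ago1 (0.80) and Dgkk (0.80). Grin2a had Hmbox1 (0.78) and Parm1 (0.76), and Grin2b had Socs7 (0.74) and Xkr4 (0.74). Grin2c had the lowest top value of the 10, with Adgrg1 (0.72) and Csdc2 (0.71).

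Other genes of the glutamate synapse were counted from 5 lists against the share of all genes that passed. Over all treatments between labels, 0 of 12 AMPA auxiliary subunits, 0 of 10 kainate and delta receptor genes, 0 of 7 tested metabotropic receptors of 8, 0 of 18 postsynaptic scaffolds and kinases and 0 of 12 transport, co-agonist and editing genes passed, where 1.82% of all genes did. Their median log2 fold changes were 0.03, 0.03, 0.13, 0.00 and 0.00 in that order, against 0.00 over all genes. Under VPA, where 1% of all genes passed, 1 gene of the 5 lists did: Slc6a9, the glycine transporter GlyT1 that sets the level of the NMDA co-agonist, which rose by 0.25 (SE 0.06, edgeR adjusted p = 0.0411) in mutant-labelled mice relative to wildtype-labelled mice. Between the vehicles in mutant-labelled mice, where 3.66% of all genes passed, 3 genes of the lists did. The auxiliary subunits Cacng8 (TARP gamma-8), by 0.30 (SE 0.08, edgeR adjusted p = 0.0219), and Gsg1l, by 0.51 (SE 0.12, edgeR adjusted p = 0.015), fell with VPA vehicle, as did the kainate subunit gene Grik5, by 0.23 (SE 0.06, edgeR adjusted p = 0.0323). No gene of these lists passed by edgeR in any other of the 14 comparisons.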

How the data were processed

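RNA of 64 punches was sequenced as stranded, poly(A)-selected libraries, per the labels' protocols. The authors deposited raw counts of reads for each gene symbol, with no normalization. The design text names FastQC, TopHat2 on mm10 (and on a human genome) and HTSeq in union mode, whereas per the submitters' processing notes reads went through Trimmomatic and HISAT2 before HTSeq, so the aligner is not settled. The annotation and the strand setting are not given in the sources used here. A read that overlaps several genes is dropped in union mode, which can lower such members.

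CPM are counts scaled to the total of the library, without TMM. Lengths and positions came from GENCODE M21 on GRCm38, and promoter sequences from RefSeq (GRCm38.p6). All 64 libraries entered edgeR's quasi-likelihood F test (version 4.0.16 under R 4.3.3), with TMM scaling and the filterByExpr filter. A model with a mean for each of 8 groups gave 11 comparisons, and an additive model of label and treatment gave 3 more, 14 in all. P-values were adjusted by Benjamini-Hochberg over the 15634 genes tested, with a threshold of 0.05. Standard errors (SE) were taken as the fold change on the log2 scale divided by the square root of F. Ratios of counts (0.5 added) were compared by two-sided exact permutation tests, and correlations by 100000 permutations (Python 3.11.15, scipy 1.17.1). The procedure was tested on simulated data whose planted changes were larger than that of Grin2c. The simulation thus gives no measure of power at the size of the Grin2c change.

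Members and gene lists were chosen with earlier results of these data known. Every member was described by level. A fold change was named for members that passed and, where none passed, for the member with the smallest p; members beyond that rule are said to be named after their values were seen. Libraries stayed in the groups their labels give. Alternatives were DESeq2 1.42.0, limma 3.58.1 (voom), DESeq2 size factors, no low-count filter, the compared groups alone, the model without 16 late vehicle libraries, without 4 libraries low in Th, with Th as a covariate, without 13 libraries discordant in clock output, and without each library in turn. Covariates of astrocyte, endothelial and mural, and microglia marker means and lengths of coding sequence were added after seeing the data. The value of a microglia marker that passed is not reported here. No pair of libraries held identical values, and the pairs within groups differed beyond counting noise.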

Additional observations from a re-analysis of the deposited data

Results flagged for a closer look

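Among 50 sets of a member in a group of 4 to 10 libraries, 2 held a library far from the others of its group; chance alone gives about 1 in 20 such sets. Grin2b was at 3.65 CPM in replicate 2 of the mutant VPA group, the highest of that group, where the next library had 1.99 CPM; Th was at 5.46 log2 CPM in this library, under the limit of 8. Grin2d was at 10.6 CPM in replicate 6 of the wildtype ACY957 group, the lowest of that group, where the next library had 15.1 CPM; Th was at 8.59 log2 CPM in it.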

How the results depend on the processing

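Grin2c between labels over all treatments kept its direction in all alternatives and passed in all of them but one, with log2 fold changes of 0.14 to 0.21; with the microglia marker mean as a covariate 0 members passed in place of 1. It passed in 64 of 64 fits that left out a library (0.17 to 0.20, edgeR adjusted p from 0.00179 to 0.0134), and the members passing were 1 in each. Without the 16 late vehicle libraries 2 members passed there, Grin2a being the other (-0.45, edgeR adjusted p = 0.0389). Genes passing in that comparison ran from 96 to 769 over the alternatives. Under VPA the members passing between labels were 2 by DESeq2 (1.68% of all genes), 2 without the 16 late vehicle libraries and 1 without the libraries low in Th (Grin2c, 0.37, edgeR adjusted p = 0.0158), against 0. Genes passing there ran from 40 to 262 over the alternatives. Members passing ran from 0 to 2 when a library was left out, and genes passing from 51 to 504. Grin2a and Grin2c passed without replicate 3 of the wildtype group (-0.89 and 0.31), and Grin2a without replicates 3, 4 or 6 of the mutant group (-0.98, -0.86 and -0.84). Between the vehicles 2 passed with Th as a covariate (8.23% of all genes), and 0 to 1 without a library, Grin2d without replicate 6 of the VPA vehicle group (-0.29, edgeR adjusted p = 0.0496). Genes passing there ran from 241 to 1033 without a library. For the settings with no share beside them, the share of all genes in the same fit is not given here. Ratio tests passing were 0 to 1 of 24 without a library, with Gria1 to Gria4 over Grin1 under ACY957 passing (0.25, adjusted p = 0.0448) without replicate 2 of the wildtype group. Results with a change of sign were Gria1 for VPA in mutant-labelled mice, -0.0171 without the 16 late vehicle libraries and -0.0001 without the discordant libraries, and the correlation of Gria4 with the dopamine markers, 0.16 over all 64 libraries. Over all 64 libraries the correlations of Gria1 (-0.39), Grin1 (-0.41) and Grin3a (-0.47) with these markers passed, and that of Grin2b (0.14) did not. In these cases the cause was not tested. No paired analysis was possible because mouse numbers are unique to a library.

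Counts of passing genes over the whole table also moved. Between labels over all treatments 285 genes passed, and 96 to 769 over the alternatives. Under VPA between labels 157 passed, and 40 to 262. Between the vehicles 572 passed, and 7 to 1286. For VPA over both labels 140 passed, and 1 to 195, and for ACY957 over both labels 10, and 2 to 45. Leaving out a library gave 226 to 357, 51 to 504, 241 to 1033, 19 to 372 and 3 to 34 in the same order. In the other comparisons 0 to 9 passed, at most 51 under an alternative, and up to 269 (against 9) without a library for VPA in mutant-labelled mice. Grin2a and Grin2b, with 16 to 135 reads per library, are limited by depth.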
